A study of Mus musculus with 9 samples.

Results

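Tibiae of mice that received titanium particles and the irisin-loaded hydrogel I-OG were compared with tibiae of untreated mice across all measured genes. The comparison takes in 6 of the 9 libraries of the study, the 3 of the Ti+I-OG group and the 3 of the naive group, chosen by their labels alone. The naive tibiae were given neither particles nor hydrogel. The Ti+I-OG tibiae received both, and were taken after 5 weeks of treatment with the injected gel. The remaining 3 libraries, from tibiae given titanium particles alone (Ti), enter the same fit and are set beside the comparison as values. The labels give no strain, sex or age, no gel without irisin, and no sham operation. Particles, irisin, gel and the procedures that delivered them therefore cannot be told apart in Ti+I-OG against naive. Whether naive tibiae were taken at the same time, and whether the 3 libraries of a group come from separate animals, is not stated, so a p-value here sets a difference against the spread of these libraries only, part of which may be technical.

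Particles shed from the surface of an implant are taken up by macrophages, and the cytokines these release favour the formation of osteoclasts, the cells that resorb bone. Loss of bone around the implant then loosens it without infection. Irisin is a hormone cut from the membrane protein FNDC5 of muscle, and integrins that contain the αV chain, encoded by Itgav, act as its receptor on bone cells. Wnt ligands drive bone formation by osteoblasts, and osteocytes hold them back through secreted inhibitors such as sclerostin. The study's description names the integrin, Wnt and inflammatory pathways as its question.

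Total counts ran from 16256082 to 24766516 per library, and a gene with no count could have had up to 3 counts, or 0.121 to 0.185 CPM (counts scaled to library size), in a library. Genes of bone were detected in every library. Dmp1, an osteocyte gene, had 48.1 to 50.3 normalised CPM in naive, 95.5 to 117 in Ti and 73.1 to 84.0 in Ti+I-OG libraries. Col1a1, the main collagen chain of bone and also a gene of the fibrillar matrix list below, had 477 to 976 in naive and 915 to 2147 in Ti+I-OG. The makeup of the libraries differed in part. The 4 globin genes took 6.03%, 9.47% and 2.95% of counts in naive replicates 1 to 3, 6.68%, 7.46% and 9.98% in Ti, and 15.1%, 15.9% and 15.9% in Ti+I-OG. Neutrophil granule genes took 6.07% ± 0.825 of counts in naive and 4.62% ± 0.746 in Ti+I-OG (SD, n = 3), and skeletal muscle genes 0.343% ± 0.160 and 0.670% ± 0.169. Each of these 3 shares, and that of the 10 most abundant genes, gave an exact two-sided permutation p = 0.1, the smallest that 3 libraries against 3 allow (Benjamini-Hochberg value 0.175 over the 7 shares compared). The shares of mitochondrially encoded, ribosomal protein and immunoglobulin genes gave exact permutation p-values of 0.2, 0.3 and 0.6. Naive replicate 3 lay farthest out on the first principal component, which carried 45.1% of the variance, at −67.6 against −39.8 and −19.3 for the other naive libraries and 6.17 to 30.3 for Ti+I-OG.

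Of the 14211 genes tested, 1174 differed between Ti+I-OG and naive at an adjusted p under 0.05 (8.26%), in edgeR's quasi-likelihood test with Benjamini-Hochberg adjustment over all genes tested, which gave every adjusted p below unless another fit is named. Genes past this threshold are called here. Of them 545 rose (3.84%) and 629 fell (4.43%), and 389 changed at least 2-fold (2.74%). A count in a gene list below that lies near 3.84% higher or 4.43% lower does not set that list apart from all genes. The lists were chosen with earlier results of these data known, so a count above these shares is a description and not a test. For 5049 genes (35.5%) every Ti+I-OG library lay on one side of every naive library, in 2652 above (18.7%) and in 2397 below (16.9%). The median log2 fold change over all genes was 0.03. With the replicate number of the labels as a block, 3450 genes were called, 1720 higher and 1730 lower, and these held all of the 1174. The calls depended on which libraries were used: 187 genes were called without naive replicate 3, 369 without naive replicate 1 and 2119 without naive replicate 2. Leaving out Ti+I-OG replicates 1, 2 or 3 gave 156, 59 or 400. Of 114 called genes named here, which leave out Mylpf, Hba-a1 and Hbb-bt, 57, 112 and 43 were still called when naive replicates 1, 2 and 3 were left out in turn, and 35, 28 and 61 when Ti+I-OG replicates 1, 2 and 3 were. In Ti against naive, 914 genes were called (6.43%), 575 higher (4.05%) and 339 lower (2.39%). Ti+I-OG and Ti differed at 6 genes (0.0422%), all higher in Ti+I-OG.

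Of the 6 largest rises, 5 were in contractile genes of slow-twitch muscle fibres, and Cidea of fat cells, described further on, was the other. Slow fibres use their own set of myosin and troponin subunits, distinct from those of the fast fibres that fill most mouse hindlimb muscles. Myh7 encodes the slow myosin heavy chain, Myl2 and Myl3 its regulatory and essential light chains, and Tnni1, Tnnc1 and Tnnt1 the slow forms of troponin I, C and T. All 6 rose. As these genes moved together, the 250 bases before the start of the 4 with the largest fold changes are shown, from RefSeq in build GRCm38.p6, written in the direction of transcription. Capitals mark CATTCC, the core of the MCAT element bound by TEAD factors, or the E-box CAGCTG bound by myogenic factors, each searched on both strands. Myh7 lies at chr14:54994627-54994876 on the minus strand, Tnni1 at chr1:135799171-135799420 on the plus strand, Tnnc1 at chr14:31208062-31208311 on the plus strand and Myl3 at chr9:110763428-110763677 on the plus strand.
Myh7: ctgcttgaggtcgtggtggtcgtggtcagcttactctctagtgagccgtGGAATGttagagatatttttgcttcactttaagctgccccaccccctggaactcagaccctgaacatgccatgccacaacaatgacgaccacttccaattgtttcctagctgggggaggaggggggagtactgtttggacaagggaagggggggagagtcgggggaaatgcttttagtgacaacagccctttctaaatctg
Tnni1: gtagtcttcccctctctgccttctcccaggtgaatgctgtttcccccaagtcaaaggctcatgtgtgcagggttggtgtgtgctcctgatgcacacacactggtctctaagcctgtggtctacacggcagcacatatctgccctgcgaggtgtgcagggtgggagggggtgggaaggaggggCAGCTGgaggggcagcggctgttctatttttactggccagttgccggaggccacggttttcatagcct
Tnnc1: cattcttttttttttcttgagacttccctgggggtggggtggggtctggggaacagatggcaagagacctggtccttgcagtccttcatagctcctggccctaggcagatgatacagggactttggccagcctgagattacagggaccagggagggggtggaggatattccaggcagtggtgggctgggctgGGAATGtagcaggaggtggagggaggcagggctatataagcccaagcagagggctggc
Myl3: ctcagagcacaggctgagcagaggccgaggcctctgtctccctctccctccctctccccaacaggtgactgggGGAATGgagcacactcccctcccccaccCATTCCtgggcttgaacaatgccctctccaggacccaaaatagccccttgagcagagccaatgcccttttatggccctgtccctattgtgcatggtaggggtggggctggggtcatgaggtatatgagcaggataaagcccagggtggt
CATTCC occurred in this window in 3 of the 6 slow-twitch genes (Myh7, Tnnc1 and Myl3) and in 12.6% of 27025 mouse promoters. CAGCTG occurred in Tnni1 alone of the 6 and in 12.8% of promoters. A match describes the letters and shows no binding.

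Myh7 stood at 0.0759, 0.0934 and 0.251 normalised CPM in naive replicates 1 to 3, at 0.566, 0.907 and 0.245 in Ti, and at 11.4, 10.2 and 11.05 in Ti+I-OG. Naive replicates 1 and 2 were under the floor of 3 counts, Ti replicate 3 lay within the naive range, and each Ti+I-OG library was far above the others. The log2 fold change over naive was 6.23 (SE 0.48, adjusted p = 0.000163). Tnni1 had 0.0380, 0.0467 and 0.126 CPM in naive and 5.50, 6.45 and 4.82 in Ti+I-OG, a ratio of pooled counts of 79.3 with an exact 95% interval for counting error of 33.6 to 246. Its fitted log2 fold change was 6.20 (SE 0.48, adjusted p = 0.000163). Tnnc1 rose by 4.90 on the log2 scale (SE 0.63, adjusted p = 0.00414), from 0.201 ± 0.109 to 6.11 ± 3.16 CPM (SD, n = 3), with Ti+I-OG replicate 2 at 9.68 and the other replicates at 4.96 and 3.68. Myl3 rose from 0.569, 1.68 and 0.712 CPM to 17.3, 34.5 and 22.3 (log2 fold change 4.66, SE 0.42), and Myl2 from 0.531, 0.934 and 0.628 to 11.6, 13.0 and 11.3 (4.10, SE 0.32). Tnnt1 had 2.62, 2.24 and 3.27 CPM in naive, 4.67, 3.55 and 3.62 in Ti, and 11.9, 12.6 and 10.2 in Ti+I-OG (2.09, SE 0.22, adjusted p = 0.00110). None of the 6 genes had overlapping naive and Ti+I-OG libraries, and each was called in all 6 fits that left out a library of either group. The log2 fold changes of Myh7 and Tnni1 became 6.90 and 6.84 without naive replicate 3, and that of Myl3 5.26 without naive replicate 2.

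Summed over the 6 genes, the level was 3.99 to 5.32 CPM in naive, 9.01 to 14.0 in Ti and 62.7 to 86.5 in Ti+I-OG. Against Ti, 5 of the 6 were called: Myh7 by a log2 fold change of 4.21 (adjusted p = 0.00387), Tnni1 by 3.06 (0.0198), Myl3 by 2.95 (0.0212), Myl2 by 2.01 (0.0322) and Tnnt1 by 1.55 (0.0322). Tnnc1, at 3.35 over Ti, did not pass (0.132). Genes of fast fibres gave another picture. The 8 genes Myh1, Myh4, Tnni2, Tnnt3, Tnnc2, Actn3, Mylpf and Pvalb all had positive fold changes with a median of 1.31, and 1 of them, Mylpf, which encodes the fast regulatory light chain, was called. With the replicate block 5 of the 8 were called. In fits with a library left out, 5 of the 8 were called without naive replicate 2 and 0 without any other library. None of the 8 was called against Ti. Their sum was 605.8, 1744 and 1493 CPM in naive, 3130, 4737 and 1267 in Ti, and 1909, 3550 and 2944 in Ti+I-OG, so naive replicate 1 was low and Ti replicate 2 high. The slow sum was 0.658%, 0.305% and 0.342% of the fast sum in naive, 0.446%, 0.268% and 0.711% in Ti, and 3.28%, 2.44% and 2.15% in Ti+I-OG. The naive and Ti+I-OG percentages did not overlap. The division into slow and fast genes was made after values were seen, so this is a description with no test. Of all 30 tested muscle genes 8 rose and each had a positive fold change (median 1.31, against 0.03 over all genes), and with the replicate block 21 were called higher. Without naive replicate 2, 14 of the 30 were called. Acta1, skeletal actin, was at 1.40 and did not pass (adjusted p = 0.0648; 0.00839 with the block). Bulk RNA cannot tell more cells of a type from more RNA per cell, here or in any result that follows, and muscle left on a bone at dissection was not measured apart.

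**Figure D1:**
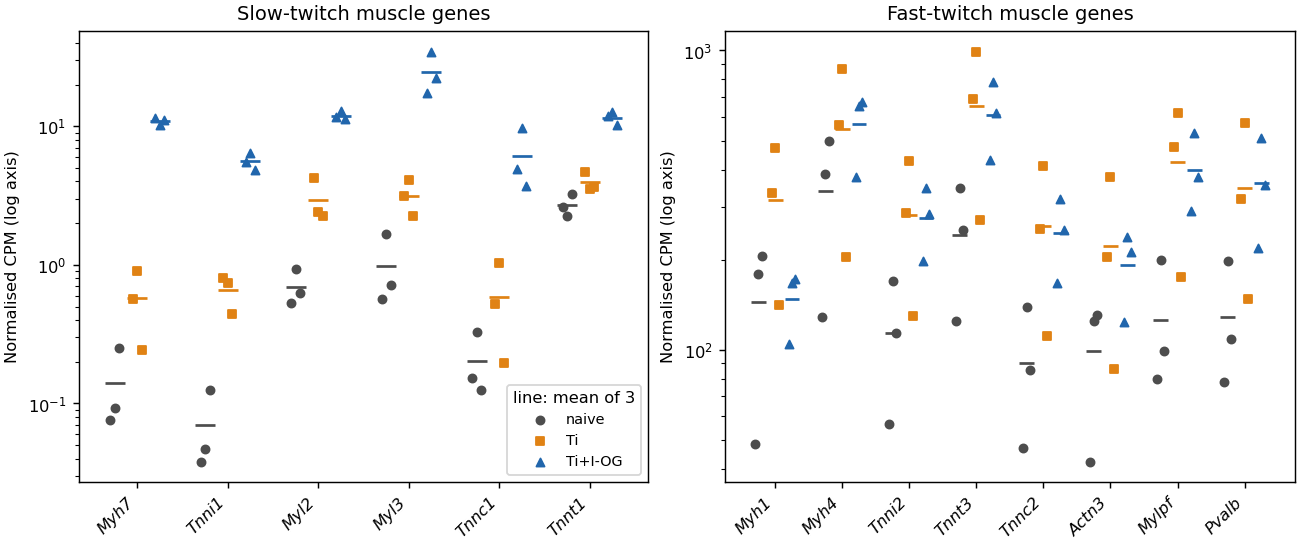
Normalised CPM on log axes of 6 slow-twitch genes (left) and 8 fast-twitch genes (right) in the 9 libraries, 3 points a group with a line at their mean. In each slow-twitch gene the Ti+I-OG points lie above all naive and Ti points, while among the fast-twitch genes the Ti+I-OG points overlap those of Ti.

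Most globin and haem genes rose as well. Red cell precursors in the marrow make haem in a chain of enzymes that starts with ALAS2, the rate-limiting step, and join it to α- and β-globin chains. Of 15 tested globin and haem synthesis genes 10 rose and none fell, and all 15 had positive fold changes (median 0.82, and 0.26 in Ti against naive). The windows before the start of Hbb-bs, the adult β-globin gene, and of Alas2 are shown because they hold AGATAA, one form of the GATA motif, in capitals like the CACCC boxes bound by KLF1 (both strands, RefSeq, GRCm38.p6). Hbb-bs lies at chr7:103827929-103828178 on the minus strand and Alas2 at chrX:150547167-150547416 on the plus strand.
Hbb-bs: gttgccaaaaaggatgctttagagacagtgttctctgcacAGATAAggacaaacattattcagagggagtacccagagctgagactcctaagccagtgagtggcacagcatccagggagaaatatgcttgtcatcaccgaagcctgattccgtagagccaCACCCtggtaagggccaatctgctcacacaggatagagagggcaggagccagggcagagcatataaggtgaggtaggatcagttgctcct
Alas2: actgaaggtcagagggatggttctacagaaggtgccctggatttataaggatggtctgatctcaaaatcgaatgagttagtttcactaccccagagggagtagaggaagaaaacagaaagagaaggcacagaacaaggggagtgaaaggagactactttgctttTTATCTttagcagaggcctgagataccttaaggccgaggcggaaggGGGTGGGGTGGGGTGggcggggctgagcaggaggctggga
AGATAA was found in 2 of the 10 genes that rose and in 10.3% of 27025 promoters of the same length. Other forms of the GATA motif were not searched, so a window without AGATAA may still hold one. CACCC was found in 7 of the 10, and in 51.3% of promoters.

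Hbb-bs was at 27832, 43489 and 12613 normalised CPM in naive replicates 1 to 3, at 29785, 32766 and 45707 in Ti, and at 85161, 87145 and 78204 in Ti+I-OG. The Ti+I-OG libraries were close to each other and lay above all 6 others, and naive replicate 3 was the lowest. The log2 fold change over naive was 1.58 (SE 0.38, adjusted p = 0.0336). Hba-a2 rose by 1.52 (SE 0.36, adjusted p = 0.0326). The α-globin genes Hba-a1 and Hba-a2, and the β-globin genes Hbb-bs and Hbb-bt, are near-identical pairs, so the split within a pair is uncertain. Alas2 had 1112, 1788 and 698 CPM in naive and 2376, 2386 and 2480 in Ti+I-OG (1.01, SE 0.27, adjusted p = 0.0452), with Ti at 1217 to 1457. Of the enzymes further down, Alad rose by 0.82 and Urod by 0.80 (SE 0.17, adjusted p = 0.0267). The mitochondrial glycine carrier Slc25a38, which feeds haem synthesis, rose by 0.83 (SE 0.19). Against 3.84% of all genes called higher and 4.43% lower, 1 of 25 tested red cell membrane and regulator genes rose and none fell (median 0.35). It was Bpgm, the enzyme that makes 2,3-bisphosphoglycerate, from 457, 680 and 221 CPM to 997, 1022 and 1101 (1.20, SE 0.31, adjusted p = 0.0394). Slc4a1, the anion exchanger of the red cell membrane, was at 0.31 and did not pass (adjusted p = 0.330).

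The erythroid calls, like those over all genes, depended on which libraries were used. Of the 15 globin and haem genes, 14 were called without naive replicate 2 and 1 without naive replicate 3. Without naive replicate 1, or without any of the Ti+I-OG replicates, none was called, with medians of 0.78 to 0.85. Of the 25 membrane and regulator genes, 14 were called higher without naive replicate 2 (median 0.64) and 0 without any other library. The replicate block gave 13 of 15, and 9 of the 25 membrane and regulator genes. These transcripts are short, with a median length of 1373 bases over the 15, and none of the 15 was called after a trend on transcript length (described at the end) was removed. With that trend removed and the block kept, 8 were called.

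**Figure D2:**
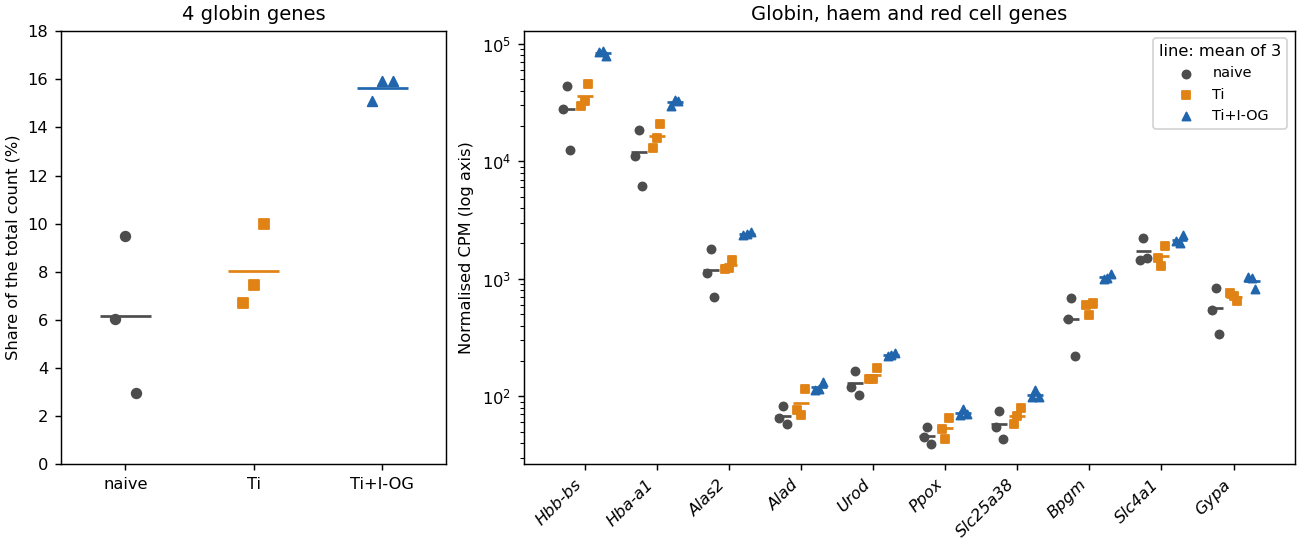
Left, share of the total count taken by 4 globin genes in each library, in percent; right, normalised CPM on a log axis of 10 globin, haem and red cell genes, with a line at the mean of 3. The Ti+I-OG globin shares sit at 15.1% to 15.9%, above all naive and Ti libraries, while the Slc4a1 points of Ti+I-OG overlap those of naive.

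Tendon, ligament and fibrous matrix genes rose as well. Of 18 tested tendon and ligament genes 10 rose and none fell, and all 18 had positive fold changes (median 1.47; 2.07 in Ti against naive, where 15 rose). Tnmd, the tendon cell membrane protein tenomodulin, was at 0.759, 0.560 and 0.586 CPM in naive and at 7.93, 8.45 and 5.44 in Ti+I-OG, and Ti was at 10.7, 13.4 and 6.51. Every Ti and Ti+I-OG library lay far above every naive one, and the Ti and Ti+I-OG ranges overlapped. The log2 fold change was 3.50 (SE 0.33, adjusted p = 0.000808). Kera, which encodes the proteoglycan keratocan, rose by 3.47 (SE 0.50, adjusted p = 0.00649), Thbs4, a thrombospondin of tendon matrix, from 3.64, 5.84 and 7.04 to 33.7, 42.8 and 30.2 CPM (2.69, SE 0.31), Fmod, fibromodulin, by 2.01 (SE 0.29) and the angiopoietin-like gene Angptl7 by 1.78 (SE 0.24). These 5 were called in all 6 fits with a library left out. Over those fits the list's count ran from 5, without Ti+I-OG replicate 2, to 12, without naive replicate 2, and the block gave 15.

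Of 26 fibrillar matrix and fibrosis genes 9 rose and none fell (median 0.73). Col3a1, collagen III, had 71.7, 61.0 and 33.0 CPM in naive, 518, 724 and 316 in Ti and 363, 513 and 229 in Ti+I-OG, with naive replicate 3 and Ti+I-OG replicate 3 the lowest of their groups and no overlap between naive and either treated group. Its log2 fold change was 2.74 (SE 0.38, adjusted p = 0.00543). Postn, periostin, a matrix protein of periosteum and healing tissue, rose by 1.502 (SE 0.25), the gelatinase Mmp2 by 1.18 (SE 0.23), the collagen VIII chain Col8a2 by 1.42 and Acta2, the actin of smooth muscle and myofibroblasts, by 1.04. Leaving out naive replicates 1, 2 and 3 in turn left 4, 9 and 3 calls in this list, leaving out Ti+I-OG replicates 1, 2 and 3 left 3, 1 and 3, and the block gave 16. Mmp3, stromelysin, was among the 12 largest rises, from 0.607, 0.420 and 0.377 CPM to 4.71, 9.54 and 1.64 (3.46, SE 0.58, adjusted p = 0.0123; 2.73 and not called without Ti+I-OG replicate 2). Acta2 was also the only called gene of 12 smooth muscle and pericyte genes (median 0.90; 5 higher and 1 lower with the block, 4 higher without naive replicate 2, and Acta2 itself in no other fit with a library left out). Of 11 genes of Schwann cells and myelin 1 rose and none fell. For this list and the smooth muscle list, the shares over all genes were 3.84% higher and 4.43% lower. The Schwann cell gene was Pmp22, a myelin membrane protein, at 0.93 (adjusted p = 0.0278; without a library, called only in the fit without naive replicate 2). Gldn, which gathers sodium channels at nodes, was at 2.06 and did not pass (0.212).

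Osteoclast genes rose in part. Of 18 tested 6 rose and none fell (median 0.34; also 6 in Ti). Acp5, the tartrate-resistant acid phosphatase, was at 323, 233 and 315 CPM in naive, 704, 798 and 774 in Ti and 778, 970 and 550 in Ti+I-OG. Every Ti+I-OG library lay above every naive one, and replicate 3 was the lowest of its group (log2 fold change 1.40, SE 0.21, adjusted p = 0.00785). Ctsk, cathepsin K, which digests bone collagen, had 284, 170 and 267 CPM in naive and 670, 725 and 472 in Ti+I-OG (1.37, SE 0.22, adjusted p = 0.0106). Ti stood at 698, 815 and 699 CPM, and Ti+I-OG did not differ from Ti by the test (log2 difference −0.24). The fusion genes Dcstamp and Ocstamp rose by 1.61 (SE 0.34) and 1.02 (SE 0.25), and Atp6v0d2, a subunit of the proton pump, by 1.09 (SE 0.22). The count for this list was 6 with the length trend removed as well. It fell to 3 when naive replicate 1 or 3 was left out, and to 2, 1 and 4 when Ti+I-OG replicates 1, 2 and 3 were.

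The RANKL axis holds the signals that induce osteoclasts. Of its 15 tested genes 1 rose and 1 fell, against 3.84% and 4.43% of all genes (median 0.26, and about 0 on FPKM values). They were Trem2, a myeloid receptor, at 0.86 (SE 0.20), and Traf6, the adaptor downstream of RANK, at −0.58 (SE 0.16, adjusted p = 0.0451). Both were called in 1 of the 6 fits with a library left out, that without naive replicate 2. Tnfsf11, which encodes RANKL itself, was at 3.23, 2.33 and 3.48 CPM in naive and 5.85, 3.30 and 1.64 in Ti+I-OG, so the groups overlapped (0.26, adjusted p = 0.682). Its decoy receptor Tnfrsf11b, osteoprotegerin, was at 0.74 (adjusted p = 0.338; 0.0388 with the block). Fos was at −0.36 and did not pass.

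Osteocytes are the cells enclosed in bone mineral, and they sense load. Of 11 tested osteocyte genes 6 rose and none fell (median 1.06, while 9 rose in Ti, median 1.52). Among the 6 was Kera, which is also in the tendon list and was described there. Dmp1, a mineral matrix protein, was at 48.1, 49.6 and 50.3 CPM in naive, at 117, 95.5 and 101 in Ti, and at 84.0, 81.8 and 73.1 in Ti+I-OG. The 3 groups did not overlap, with Ti+I-OG between naive and Ti (0.69, SE 0.12, adjusted p = 0.0152), and Ti+I-OG against Ti, at −0.40, was not called. Mepe, a matrix phosphoglycoprotein, rose by 1.10 (SE 0.22) and Fbln7 by 2.11 (SE 0.45). Sost, sclerostin, rose from 6.38, 11.3 and 8.17 CPM to 16.2, 17.99 and 19.6 (1.06, SE 0.22, adjusted p = 0.0247). Fgf23, the phosphate hormone of osteocytes, was lower in each Ti+I-OG library, at 0.0991, 0.0687 and 0.453 CPM against 1.48, 0.747 and 1.21, at or under the floor in 2 of them. It missed the threshold (−2.43, SE 0.69, adjusted p = 0.0517) and passed with the block (0.0218). The list's count was 1 without Ti+I-OG replicate 1 or 2, 2 without naive replicate 3, and 8 higher and 1 lower without naive replicate 2.

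Among 23 tested genes of osteoblasts and bone matrix 4 were called higher and none lower, with a median of 0.90 (13 rose in Ti, median 1.28). Tnn, tenascin N of periosteum and bone, rose from 1.75, 0.980 and 1.38 CPM to 7.43, 7.35 and 9.97 (2.58, SE 0.27, adjusted p = 0.00110) and was called in all 6 fits with a library left out. Bmp3, a BMP that acts against the bone-forming ones, rose by 1.16 (SE 0.23), Ostn, the secreted peptide osteocrin, by 1.80 (SE 0.42), and the transmembrane collagen Col13a1 by 1.03. The main matrix genes were not called. Col1a1 was at 0.89 (adjusted p = 0.132), with 976, 904 and 477 CPM in naive and 915, 1321 and 2147 in Ti+I-OG. Alpl, the mineralising phosphatase, was at 0.35, and Bglap, osteocalcin, at 1.02 (adjusted p = 0.275) with naive replicate 3 at 12.4 CPM against 141 and 164. Near-identical copies of Bglap make its level uncertain. Ibsp, bone sialoprotein, was at 0.61 (adjusted p = 0.0830; 0.00450 with the block). The block called 12 of the 23. Without naive replicate 2, 7 were called, and 1 to 4 without any other library. Of 20 cartilage genes 2 rose and none fell, against 3.84% and 4.43% of all genes. Prg4, the joint lubricant lubricin, rose by 1.53 (SE 0.26, adjusted p = 0.0125) and Comp by 1.28 (SE 0.29), with a list median of 0.56 (6 rose in Ti, median 1.62). Col2a1 was at 0.72 and Acan at −0.25, and neither passed. Ti+I-OG replicate 3 had 82.4 CPM of Col2a1 and 6.12 of Acan, against 200 and 259 and against 32.2 and 35.4 in its group. Without it 3 cartilage genes were called, and 0 without Ti+I-OG replicate 2. Of 16 genes of the stromal niche, which holds blood stem cells, 1 rose and none fell, against the same shares of all genes. It was Ptn, pleiotrophin, at 2.13 (SE 0.43, adjusted p = 0.0220; 2.79 without naive replicate 1), and Cxcl12 (0.18) and Lepr (0.06) did not pass. The count for this list was 5 without naive replicate 2, and 0 without naive replicate 3 or Ti+I-OG replicate 1 or 2.

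**Figure D3:**
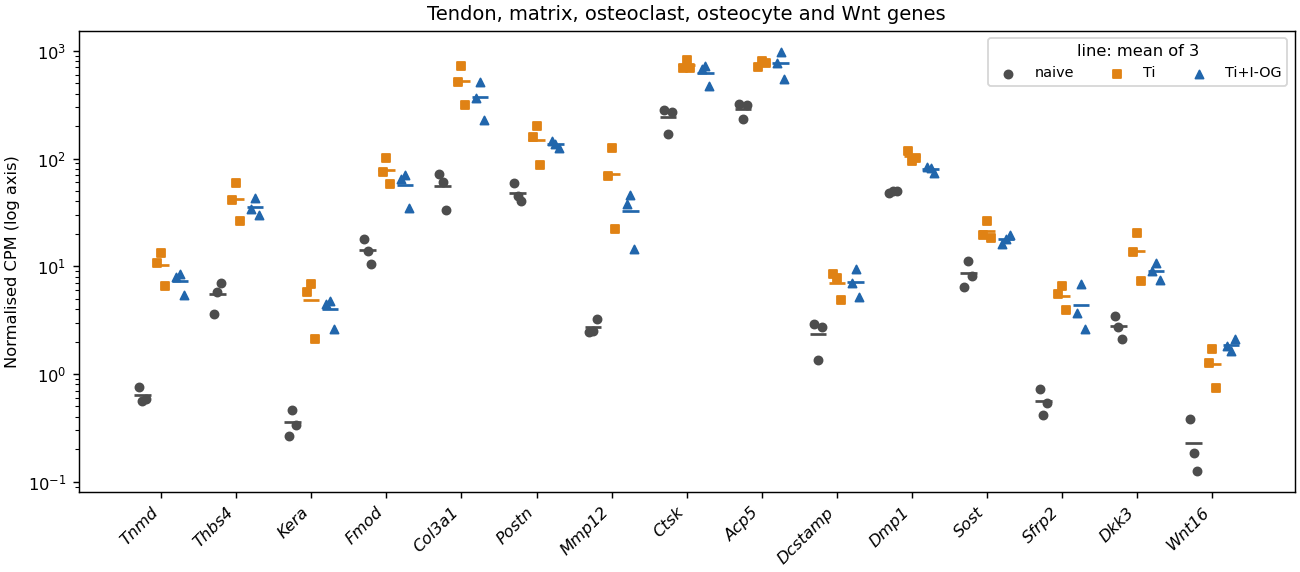
Normalised CPM on a log axis of 15 tendon, matrix, osteoclast, osteocyte and Wnt genes in the 9 libraries, 3 points a group with a line at their mean. For each of the 15 genes the naive points lie below all Ti+I-OG points, and Ti and Ti+I-OG points overlap in all but Dmp1.

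In the Wnt pathway 5 of the 8 calls were in the secreted part. Of 22 tested ligands and secreted modulators 5 rose and none fell (median 1.08; 8 rose in Ti, median 1.26). Sfrp2, a secreted frizzled-related protein that binds Wnts, was at 0.721, 0.420 and 0.545 CPM in naive, 5.47, 6.55 and 3.92 in Ti and 3.72, 6.87 and 2.61 in Ti+I-OG (2.93, SE 0.42, adjusted p = 0.00625). Wnt16, a ligand known for the upkeep of cortical bone, rose from 0.380, 0.187 and 0.126 CPM to 1.83, 1.65 and 2.10 (2.96, SE 0.51, adjusted p = 0.0129). Dkk3, of the dickkopf family, rose by 1.69 (SE 0.34) and Wnt5b, a ligand of the β-catenin-independent branch, by 1.19 (SE 0.29). With Sost these make up the 5, of which 3 encode inhibitors or family members of inhibitors and 2 encode ligands. In none of these genes did naive and Ti+I-OG overlap. The list's count was 10 with the block and 10 without naive replicate 2, 2 without naive replicate 3 or Ti+I-OG replicate 1, 1 without Ti+I-OG replicate 2, and 3 without Ti+I-OG replicate 3. Of 32 receptors and intracellular members 1 rose and 2 fell, against 3.84% and 4.43% of all genes (median 0.09, which turned negative on FPKM values). The receptor Fzd9 rose by 1.56 (SE 0.44, adjusted p = 0.0495), and Apc and Gsk3b, both of the complex that destroys β-catenin, fell, with log2 fold changes of −0.73 (SE 0.15) and −0.63 (SE 0.15). Neither fall was called with the length trend removed (adjusted p = 0.263 and 0.128), and no gene of this list was called without naive replicate 3 or Ti+I-OG replicate 1 or 2. The pathway's own target genes Axin2 (−0.38, adjusted p = 0.429) and Lef1 (0.32, 0.509) did not pass.

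Integrins join cells to matrix. Of 25 tested integrin genes none rose and 1 fell, against 3.84% and 4.43% of all genes, with a median of 0.01 that turned negative on FPKM values and with DESeq2-type (RLE) size factors. The gene that fell was Itgam, the αM chain of myeloid cells, from 555, 437 and 829 CPM to 316, 321 and 356 (−0.87, SE 0.24, adjusted p = 0.0472). It was called in 1 of the 6 fits with a library left out, that without naive replicate 2, and the block gave 3 higher and 5 lower. Itgav, the αV chain, was at 56.5, 42.4 and 52.8 CPM in naive, 124, 108 and 79.8 in Ti and 86.3, 76.6 and 60.8 in Ti+I-OG. The naive and Ti+I-OG libraries did not overlap, and the difference missed the threshold (0.56, SE 0.19, adjusted p = 0.0771; 0.0193 with the block). Its partner Itgb5 was at 0.19 (adjusted p = 0.384). Fndc5, the irisin precursor, was at 0.531, 2.75 and 1.55 CPM in naive and 4.71, 6.52 and 4.08 in Ti+I-OG, again without overlap and not called (1.67, SE 0.55, adjusted p = 0.0739; 0.0215 with the block). Its level in Ti was 5.71, 6.43 and 1.76 CPM. Of the 5 tested genes of the irisin list none was called by edgeR and 2 had an unadjusted p under 0.05. Of 19 focal adhesion adaptors 1 rose and none fell, against the same 3.84% and 4.43%. It was Fermt2, kindlin-2, which activates integrins (0.83, SE 0.23, adjusted p = 0.0490), and the block gave 3 higher and 5 lower. Without naive replicate 2 this list had 1 higher and 2 lower, and 0 without any other library. Of 32 genes of BMP and TGF-beta signalling 2 rose and 1 fell (6 and 1 with the block), against 3.84% and 4.43% of all genes. Those that rose were Bmp3 and Bmp4, the latter by 1.41 (SE 0.29). The activin chain Inhba fell by 0.88 on the log2 scale (SE 0.20). Without naive replicate 2, 4 of this list were higher and 1 lower, and 0 were called without Ti+I-OG replicate 1 or 2. Tgfb2 was at 0.65 and did not pass.

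Of 19 tested cytokines and mediators, a list that leaves chemokines apart, none was called higher and 2 fell (median −0.14). Over all genes 3.84% were called higher and 4.43% lower. Acod1, which makes itaconate in activated myeloid cells, was at 12.6, 11.7 and 11.8 CPM in naive, 3.82, 3.34 and 3.33 in Ti and 4.66, 4.19 and 4.02 in Ti+I-OG. The treated libraries of both groups lay well below naive, and the fall of 1.48 on the log2 scale (SE 0.18, adjusted p = 0.00270) held in all 6 fits with a library left out. Il1r2, the decoy receptor for interleukin-1, had 53.3, 68.9 and 120 CPM in naive and 25.2, 33.6 and 25.04 in Ti+I-OG (−1.53, SE 0.26, adjusted p = 0.0137). The cytokines tied to particle disease showed no call. Il1b was at 98.3, 39.8 and 16.9 CPM in naive and 41.6, 54.1 and 45.4 in Ti+I-OG, the naive libraries spreading around those of Ti+I-OG (−0.14, adjusted p = 0.858). Tnf was at −0.13 (adjusted p = 0.828) and Il6 at −0.76 (0.431), with Il6 at 0.170 to 1.10 CPM over the 6 libraries.

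Of 25 genes of Toll-like receptors and NF-κB, none rose and 6 fell, against 4.43% of all genes called lower (median −0.38, and −0.28 in Ti, where 1 fell). Toll-like receptors sense microbial and cell debris on myeloid cells. Tlr6 fell from 17.8, 16.1 and 17.7 CPM to 9.81, 8.31 and 7.53, with no overlap between naive and Ti+I-OG (−1.01, SE 0.16, adjusted p = 0.0106). Its Ti libraries, at 9.58 to 11.2, overlapped those of Ti+I-OG. Tlr13, a sensor of bacterial ribosomal RNA, had 119, 125 and 139 CPM in naive, 114, 113 and 95.2 in Ti and 84.8, 77.0 and 64.1 in Ti+I-OG (−0.76, SE 0.14, adjusted p = 0.0171). Tlr8 (−1.01, SE 0.20), Tlr4, the endotoxin receptor (−0.73, SE 0.16), and the kinase Irak4 (−0.67, SE 0.16) fell as well. The list's count was 9 with the block, 8 without naive replicate 2, 3 without naive replicate 1 or Ti+I-OG replicate 3, 2 without naive replicate 3 or Ti+I-OG replicate 1, and 0 without Ti+I-OG replicate 2. Of 24 interferon-stimulated genes none rose and 3 fell (6 with the block). They were Oas2, from 18.4, 14.8 and 19.3 CPM to 6.79, 5.91 and 6.68 (−1.43, SE 0.19, adjusted p = 0.00414), Oas3 (−0.59) and the RNA sensor Ddx58 (−0.49). Oas2 was called in each fit with a library left out, and the other 2 only in the fit without naive replicate 2. Isg15 went the other way without passing (0.72, adjusted p = 0.0952; 0.0242 with the block). Of 25 chemokines and receptors 1 rose and 2 fell, against 3.84% and 4.43% of all genes. Ccl8 rose by 1.84 (SE 0.44), and was at 1.16 and not called without Ti+I-OG replicate 1. Those that fell were the neutrophil receptor Cxcr2 and Ccr1, the latter at −0.61 (SE 0.14). Ccl2 was at 1.24 and did not pass (adjusted p = 0.304).

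Myeloid cell genes moved in both directions. Of 25 macrophage and monocyte genes 5 rose and none fell (median 0.59). Mmp12, the macrophage metalloelastase, was at 2.47, 2.52 and 3.23 CPM in naive, 69.4, 124 and 22.2 in Ti and 38.1, 46.3 and 14.4 in Ti+I-OG, replicate 3 being the lowest in both treated groups (3.58, SE 0.59, adjusted p = 0.0120). Retnla, a marker of alternative activation, rose by 2.30 (SE 0.52), Trem2 by 0.86, Fabp4, which fat cells also express, by 1.33 (SE 0.36) and Cd68, a lysosomal protein of phagocytes, from 67.7, 71.3 and 74.1 CPM to 97.8, 112 and 95.4 (0.52, SE 0.12, adjusted p = 0.0296). Cd163, a haemoglobin scavenger receptor of resident macrophages, was at −0.16 and did not pass. The macrophage count was 12 with the block and 9 without naive replicate 2. With the length trend removed it was 1 higher, Mmp12 (adjusted p = 0.0212), and 1 lower. Retnla, Trem2, Fabp4 and Cd68 were then not called (adjusted p = 0.0875 to 0.258). Leaving out naive replicate 1 gave 2, Ti+I-OG replicate 2 gave 0, and each of the other 3 libraries gave 1. Of 15 MHC class II and dendritic cell genes 5 rose (median 0.65). They were the lectin Cd209a (1.61, SE 0.23, adjusted p = 0.00649; called in all 6 fits with a library left out), the class II chains H2-Ab1 (0.90) and H2-Eb1 (0.95), and H2-DMa (0.62) and H2-DMb1 (0.65), which load peptide onto them. Of these 4 class II genes, H2-DMb1 was called only in the fit without naive replicate 1 and the other 3 only in the fit without naive replicate 2, and none of them after the length trend was removed (adjusted p = 0.0993 to 0.231).

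Of 20 genes of the neutrophil granule list 1 fell and none rose (median −0.39), against 4.43% and 3.84% of all genes. It was Cxcr2, a chemokine receptor, so no gene of a granule protein was called. Cxcr2 fell from 386, 314 and 384 CPM to 189, 192 and 177, with Ti between at 215 to 268 (−0.96, SE 0.14, adjusted p = 0.00732). It was called in all 6 fits with a library left out. Mpo, myeloperoxidase, was at −0.97 (adjusted p = 0.174; 0.0429 with the block), and the list's count was 7 with the block and 5 without naive replicate 2. Cxcr1, the related chemokine receptor, was among the 12 largest falls, from 2.32, 2.38 and 2.26 CPM to 0.446, 0.824 and 0.170 (−2.29, SE 0.51, adjusted p = 0.0288; −2.88 and not called without Ti+I-OG replicate 2). Of 16 genes of mast cells, eosinophils and basophils 3 rose, 2 fell and 11 were not called, with 8 positive fold changes. Those that rose were Tpsb2, a tryptase (3.22, SE 0.70; 2.61 without naive replicate 1 and 3.83 without naive replicate 2), and the chymases Mcpt4 (3.08, SE 0.61, adjusted p = 0.0209) and Cma1 (2.61, SE 0.61). Their levels were low, Mcpt4 at 0.266, 0.420 and 0.168 CPM in naive and 3.07, 0.687 and 3.46 in Ti+I-OG, where replicate 2 stood apart. Hdc, which makes histamine, fell by 1.01 on the log2 scale (SE 0.20), as did Siglecf, the eosinophil lectin (−0.73, SE 0.16). Without naive replicate 3 or Ti+I-OG replicate 1, no gene of this list was called.

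Lymphoid lists gave few calls. Of 18 B lineage and 20 T and NK cell genes none was called by edgeR, and 5 and 2 had an unadjusted p under 0.05. Of the B lineage genes 17 had positive fold changes (median 0.54), 3 were called higher with the block and 7 without naive replicate 2 (median 0.88), and 0 without any other library. Of the T and NK cell genes 1 was higher and 1 lower without naive replicate 2. Cd79a, part of the B cell receptor, was at 0.74 (adjusted p = 0.102; 0.0482 with the block) and Cd3e, of the T cell receptor, at −0.46 (0.341). Immunoglobulin genes diverged. Ighm, the μ heavy chain, was at 399, 590 and 324 CPM in naive, 638, 541 and 840 in Ti and 2305, 608 and 1076 in Ti+I-OG, a rise of 1.60 (SE 0.40, adjusted p = 0.0383) in which replicate 1 was the highest (0.94 and not called without it). Ighg1, the γ1 chain, was at 84.9, 68.3 and 142 CPM in naive, 148, 58.3 and 248 in Ti and 21.9, 33.0 and 35.5 in Ti+I-OG, each Ti+I-OG library being below every naive and Ti one (−1.71, SE 0.43, adjusted p = 0.0394). It was −2.33 against Ti, which was not called. Sdc1, syndecan-1 of plasma cells and epithelia, rose by 0.93 (SE 0.15, adjusted p = 0.0106), and Jchain, which joins secreted IgM and IgA, was at −0.16 and did not pass. Of 14 plasma cell genes 2 rose, Ighm and Sdc1 (3 without naive replicate 2, and 1 without any other library). Ccl21b, a lymphoid chemokine with near-identical copies, rose by 3.64 (SE 0.97, adjusted p = 0.0438) from 0 to 0.420 CPM in naive libraries to 1.08 to 4.53. Its fold change was 4.59 without naive replicate 2, and 3.02 and 2.98, neither called, without naive replicate 1 or Ti+I-OG replicate 2.

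Some adipocyte, oxidative phosphorylation and antioxidant genes rose, while no gene of the glycolysis list was called higher. Of 19 adipocyte genes 5 rose and none fell (median 1.33). Lpl, lipoprotein lipase, was at 68.4, 86.8 and 54.9 CPM in naive and 147, 163 and 256 in Ti+I-OG (1.43, SE 0.30, adjusted p = 0.0247). Cfd, adipsin, had 47.2, 94.9 and 23.5 CPM in naive and 98.0, 238 and 402 in Ti+I-OG (2.16, SE 0.55; 2.80 without naive replicate 2), the lowest Ti+I-OG library being close to the highest naive one. Cidea, a lipid droplet protein of brown and beige fat, was at 0, 0.140 and 0 CPM in naive and at 0.744, 0.343 and 4.25 in Ti+I-OG, so replicate 3 held most of it. Its ratio of pooled counts was 43.3 (exact 95% interval for counting error 14.4 to 214), and its fitted log2 fold change 5.21 (adjusted p = 0.0360). That became 4.62 and 3.52, neither called, without naive replicate 1 or Ti+I-OG replicate 3, and naive replicate 2 held the only naive counts. Cidec, a related droplet protein, rose by 2.12 (adjusted p = 0.0493; 1.51 and not called without Ti+I-OG replicate 3) though its libraries overlapped, and Adipoq, adiponectin, was at 0.68 and did not pass (0.143). The adipocyte count was 10 higher and 1 lower with the block and 11 without naive replicate 2. It was 0 without naive replicate 1 or 3 or Ti+I-OG replicate 2 or 3, and 1 without Ti+I-OG replicate 1. With the length trend removed Lpl alone was called (adjusted p = 0.0285). Cidea, Cfd, Cidec and Fabp4 were then at an adjusted p of 0.0719 to 0.122.

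Each of the 30 tested nuclear genes of oxidative phosphorylation had a positive fold change (median 0.39) and 6 rose, among them the complex I subunits Ndufa2 (0.94, SE 0.20), Ndufb8 (0.58) and Ndufv1 (0.44), Sdhb of complex II (0.68) and Cox4i1 of complex IV (0.59). With the block 16 were called. With the length trend removed none was called, and the list's median length was 1102 bases. Without each library in turn 0 to 5 were called, 0 without naive replicate 3 or Ti+I-OG replicate 1 or 2, 1 without naive replicate 1 and 2 without Ti+I-OG replicate 3. None of 13 mitochondrially encoded genes was called by edgeR, with 1 at an unadjusted p under 0.05 and mt-Co1 at 0.41. Of 20 antioxidant genes 6 rose (median 0.55): Gpx3, the secreted glutathione peroxidase, from 302, 353 and 215 CPM to 555, 741 and 601 (1.12, SE 0.22, adjusted p = 0.0199), Prdx2 of red cells (0.99), Gpx1 (0.82), Gpx4 (0.80) and Nqo1 (0.76) among them. Hmox1, which breaks haem down, was at 0.92 (adjusted p = 0.0542; 0.0129 with the block). The block called 14 of the 20. The length trend removed left 1, and 0 were called without naive replicate 3 or Ti+I-OG replicate 2, 1 without naive replicate 1 or Ti+I-OG replicate 1, 2 without Ti+I-OG replicate 3 and 10 without naive replicate 2. In the clock list of 18 genes the output factor Dbp rose from 10.97, 9.34 and 9.17 CPM to 21.1, 38.9 and 30.5 (1.61, SE 0.23, adjusted p = 0.00598) and Nr1d1, the repressor REV-ERBα, by 1.22 (SE 0.23). The core activator Arntl was at 0.58 (adjusted p = 0.0953; 0.0466 with the block). The clock count was 4 higher and 2 lower without naive replicate 2, and 1 without Ti+I-OG replicate 1 or 2. Hours of collection are not in the labels. Of 20 genes of glycolysis and hypoxia none rose and 1 fell, against 3.84% and 4.43% of all genes. It was the glucose transporter Slc2a1 (−0.80, SE 0.16, adjusted p = 0.0236), and the block gave 3 lower and 1 higher. The count was 7 lower without naive replicate 2, and 0 without naive replicate 3 or Ti+I-OG replicate 1 or 2. Of 23 immediate early and stress genes 1 rose and none fell, beside the same shares of all genes. It was Ddit3 (0.61, SE 0.16, adjusted p = 0.0455), the stress factor CHOP, called without naive replicate 2 and in no other fit with a library left out.

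The 12 largest falls among clear, expressed and non-overlapping genes were in genes of varied function. Lipg, endothelial lipase, fell from 26.6, 19.3 and 110 CPM to 5.65, 5.97 and 7.70 (−3.02, SE 0.55, adjusted p = 0.0168), naive replicate 3 being far above the rest. Without that library it was called at −1.86 (adjusted p = 0.00426), and it was not called without Ti+I-OG replicate 1 or 2. Ggt1, γ-glutamyltransferase, fell from 12.5, 6.72 and 18.8 CPM to 2.23, 1.99 and 2.04 (−2.60, SE 0.34, adjusted p = 0.00414), and Prok2, a secreted peptide of neutrophils, was at −2.22 (SE 0.41). Ifitm1, a membrane antiviral protein, was at 150, 70.4 and 121 CPM in naive and at 34.2, 34.8 and 32.6 in Ti+I-OG (−1.75, SE 0.23), with Ti at 25.3 to 34.5. The others were Cmah, which converts sialic acid (−1.67, SE 0.23), the potassium channel Kcna3 (−1.90; −2.80 without Ti+I-OG replicate 3), the brush border enzyme Mgam (−1.77), the lipid transporter Abca13 (−1.68), the histone methyltransferase Kmt2d (−1.71, SE 0.31) and Zbed6, a repressor of Igf2 (−2.004, SE 0.21, adjusted p = 0.00110). With Cxcr1 and Ighg1 these make 12. In 3 of them, Mgam, Abca13 and Kmt2d, naive replicate 3 was well above the other naive libraries (123, 167 and 122 CPM against 39.4 to 77.8), and all 3 were called without it. Ggt1, Ifitm1, Cmah and Zbed6 were called in all 6 fits with a library left out. Several of these transcripts are long, among them Abca13 (16009 bases), Zbed6 (10157), Cmah (8511), Kmt2d (8021) and Mgam (6049). With the trend on transcript length removed, Abca13 (adjusted p = 0.0629) and Kcna3 (0.0719) were not called, and the others still were.

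Of the 41 gene lists, 27 held a gene called higher, 11 a gene called lower and 8 none. Over all genes 3.84% were called higher and 4.43% lower, so many lists of this size would hold a call at those shares. Some genes belong to several lists. The lists with none were those of megakaryocytes, B lineage, T and NK cells, irisin, endothelium, skin, cell cycle and mitochondrially encoded genes. Megakaryocyte genes had a median of −0.16 (16 tested, 0 at an unadjusted p under 0.05), with the platelet chemokine Pf4 at 0.01. Endothelial genes had a median of 0.14, which was 0.01 or less on FPKM values, and cell cycle genes one of 0.03, which turned to −0.19 and −0.20 there, with 3 of 16 and 4 of 26 at an unadjusted p under 0.05 and the proliferation marker Mki67 at −0.36. Of 12 skin genes 4 were tested, 1 with an unadjusted p under 0.05, and the keratin Krt14 had 6 counts over all 9 libraries. Angptl4, a lipase inhibitor induced by fasting and hypoxia, did not differ from naive by the test: it was at 21.5, 19.5 and 22.1 CPM in naive and 22.1, 24.6 and 23.0 in Ti+I-OG (0.14, adjusted p = 0.491). Ti libraries were lower, at 10.9, 11.2 and 11.7 CPM (−0.90 against naive, adjusted p = 0.00626), and Angptl4 was the only gene other than the slow-twitch ones to differ between Ti+I-OG and Ti (1.04, SE 0.13, adjusted p = 0.0213).

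**Figure D4:**
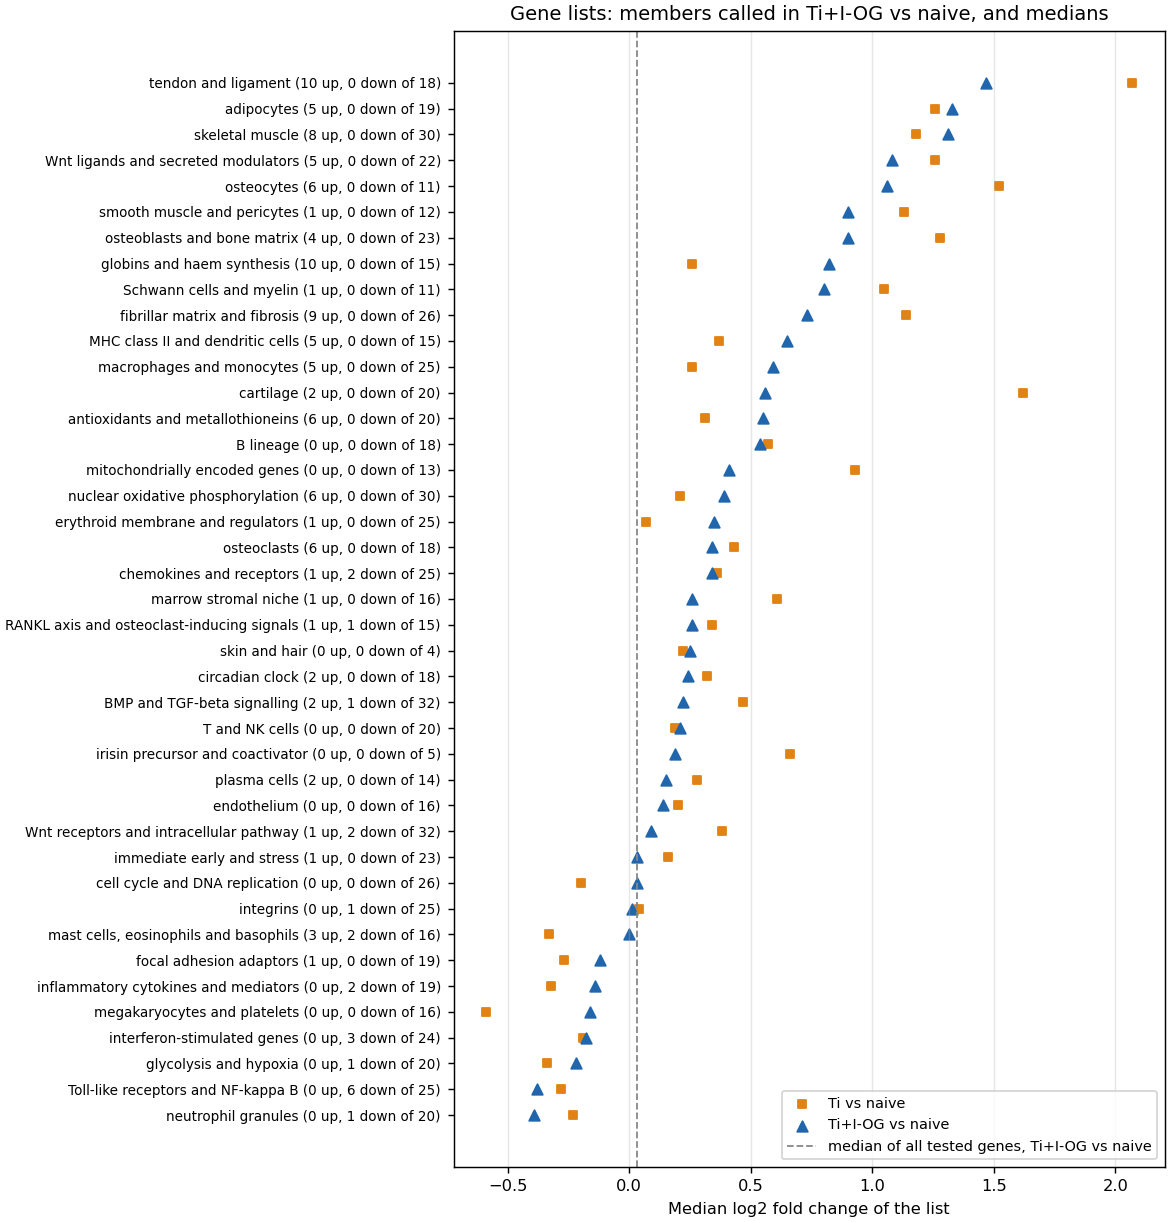
Median log2 fold change of the tested members of each of 41 gene lists, for Ti+I-OG against naive (triangles) and Ti against naive (squares), which share the naive libraries; the dashed line is the median of all tested genes in Ti+I-OG against naive, 0.03. Labels give the members called in Ti+I-OG against naive; among the triangles tendon and ligament lies highest at 1.47 and neutrophil granules lowest at −0.39, and among the squares tendon and ligament at 2.07 and megakaryocytes at −0.59.

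Fold changes moved with transcript length across the whole table. The tested genes were divided by length into 5 classes of equal size. In the class with the shortest transcripts (204 to 1531 bases) 283 were called higher and 24 lower (10.2% and 0.861%), with a median log2 fold change of 0.33. In the longest class (4502 bases and more) 36 were higher and 409 lower (1.29% and 14.7%), with a median of −0.26. Spearman's rho between length and fold change was −0.408 across 13940 genes, which are not independent replicates and share the 6 libraries. Within libraries, the rank correlation of length with the level relative to the mean of the 9 libraries was 0.141, 0.279 and 0.360 in naive, 0.0835, −0.0648 and −0.0827 in Ti, and −0.335, −0.491 and −0.121 in Ti+I-OG. Naive replicate 3 and Ti+I-OG replicate 2 were at the ends of this range. With a smooth trend on length taken out of each library, 355 genes were called, 162 higher and 193 lower, of which 304 were among the 1174. By list, 6 muscle genes, all slow-twitch, 10 tendon, 6 osteoclast and 4 secreted Wnt genes were called, and no globin, haem or oxidative phosphorylation gene. The macrophage, class II and adipocyte lists had 1 gene called higher each. Whether length, RNA quality or the makeup of the tissue lies behind this trend was not tested.

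**Figure D5:**
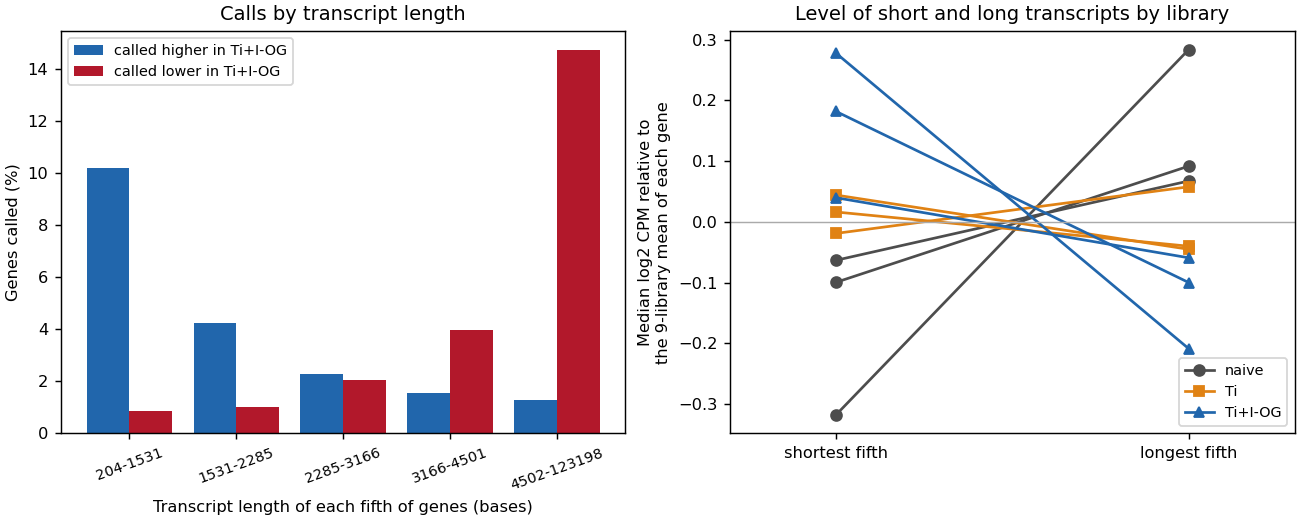
Left, percentage of genes called higher and lower in Ti+I-OG against naive in each of 5 length classes of transcripts, in bases; right, median log2 CPM of the shortest and longest class in each library, with the mean of a gene in all 9 libraries set to 0. Calls higher fall from 10.2% to 1.29% and calls lower rise from 0.861% to 14.7% with length, and the steepest lines in opposite directions are naive replicate 3 and Ti+I-OG replicate 2.

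Some named genes share exon sequence with another tested gene, and the kit used does not mark strand, so their values are uncertain: Alas2, Cox4i1, Dbp, Ddit3, H2-DMa, Irak4, Itgam, Myl2, Myl3, Ndufa2, Nr1d1, Prdx2, Prg4 and Zbed6. Mylpf, the other fast-twitch genes, Hba-a1 and Hbb-bt were not checked for this.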

How the data were processed

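Polyadenylated RNA of 9 mouse tibiae was sequenced from libraries without strand marking, per the labels' protocols. The authors deposited one estimated count and one FPKM value (fragments scaled to transcript length and library depth) per gene and library. RSEM, StringTie 1.3.1, fastp, edgeR and DESeq2 appear in the submitters' processing notes with no stated use. Aligner, genome build and annotation: not given in the sources used here. Groups came from the sample titles.

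The estimated counts were rounded, and edgeR 4.0.16 (R 4.3.3) fitted 14211 of 22183 genes in all 9 libraries (filterByExpr, TMM, quasi-likelihood test, a mean per group, 6 residual degrees of freedom). All tests were two-sided, with Benjamini-Hochberg values over all tested genes and a threshold of 0.05. CPM values use TMM. Each SE is the absolute log2 fold change over the root of its F statistic. Deposited FPKM values served the naming rule, transcript lengths (counts over FPKM) and an alternative test in limma 3.58.1. Replicates differed beyond counting noise, so none was a copy. Counting intervals and floors cover counting error only; PCR copies make them too narrow.

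The 12 largest rises and 12 largest falls were taken among called genes with a proper symbol, no overlap between libraries, and FPKM averaging 1 or more in naive or Ti+I-OG. Up to 5 called members per list and direction with the smallest p, and a set of anchor genes whatever their value, were added. Mylpf, Krt14 and the fast-twitch genes were named after their values were seen. The lists and the genes were chosen with earlier results of these data known. The script was tested on simulated data.

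Whether replicate numbers pair the samples is not settled by the data. Deviations of same-numbered naive and Ti+I-OG libraries from their group means correlated at 0.197, 0.115 and 0.273. Over all 9 same-numbered pairs of the groups the range was −0.0238 to 0.333, and for libraries of unlike number −0.345 to 0.0761. Each group was centred on its own mean, so these correlations are not independent of each other. The labels do not say what the number marks.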

Additional observations from a re-analysis of the deposited data

How the results depend on the processing

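Alternatives were other scalings and filters, DESeq2 1.42.0, limma on counts or FPKM, a fit of the 6 compared libraries only, the replicate block and leaving out each library, and, chosen after seeing the data, removal of the length trend and blocks added to it or to the 6-library fit. The 1174 calls (545 higher, 629 lower) were within 1.5 times of 1174 with RLE, upper-quartile or globin-free scaling, either filter and limma-voom. They became 770 (332 higher) with the 6 libraries, 2439 (1144 and 1295) with DESeq2, and 1787 (290 and 1497) or 1853 (317 and 1536) with limma on log2(FPKM + 1) or log2(FPKM + 0.1). Leaving out 1 library gave 59 to 2119 genes called, 37 to 1017 higher and 22 to 1102 lower. Length trend removal gave 355 (162 and 193). The share of calls that were higher was 46.4%, but 60.7% with upper-quartile scaling, where the median log2 fold change of all genes was 0.12, and 16.2% and 17.1% on FPKM, where it was −0.12 and −0.16.

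With the replicate block, 3450 genes were called (1720 and 1730). The block gave 2106 (974 and 1132) with the length trend removed and 3300 (1633 and 1667) with the 6 libraries. Of all 9 libraries 7 correlated best with the libraries of their own number, a count that cannot establish a pairing, as the correlations are not independent. Of the genes named in the report, with the fast-twitch genes, Hba-a1 and Hbb-bt left out, the block added 11 calls, given beside them, and ended none.

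None of the 114 called genes counted above changed sign under any alternative run. Mylpf, Hba-a1 and Hbb-bt were not among them. Uncalled genes did. Pf4 was at −0.00277 (RLE), −0.00209 (no filter), −0.00282 (DESeq2), −0.00411 (voom), −0.200 and −0.201 (FPKM), −0.0272 (replicate block), −0.456 and −0.528 (length trend removed, without and with the block) and −0.0119 (6 libraries with the block). Il1b was at 0.195 (voom), 0.000685 and 0.0107 (FPKM), and 0.0758 and 0.184 (block, 9 and 6 libraries). On FPKM, Tnfsf11 was at −0.0247 and −0.0878, Lepr at −0.144 and −0.154, and Angptl4 at −0.0652 and −0.0709. Mki67 was at 0.0874 and 0.0934 with the length trend removed. Over the fits without 1 library, Pf4 ran from −0.180 to 0.121, Il1b from −0.581 to 0.730, Tnfsf11 from −0.303 to 0.595, Acan from −0.617 to 0.199, Jchain from −0.426 to 0.0937, Cxcl12 from −0.0807 to 0.417, Tnf from −0.325 to 0.0693, Lepr from −0.128 to 0.154 and Cd163 from −0.304 to 0.000255. The causes of these shifts were not tested. With 3 libraries a group, genes near the floor such as Cidea, Fgf23 and Il6 rest on few counts.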
